A study of Mus musculus with 2 samples.

Results

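Kit, a receptor tyrosine kinase, and its ligand Kitl (stem cell factor, or Steel factor) were read in single cells of mouse embryos. The 2 genes were taken by symbol from the 31053 genes listed. They were followed across 50 cell clusters of 2 libraries, 1 from embryonic stage E10.5 and 1 from E11.5, a day later. Both libraries came from C57BL/6 embryos, with no altered allele or treatment named in the labels, and pooled the dorsal aorta, the tissue around it and the fetal liver. The study concerned precursors of haematopoietic stem cells. The number and sex of the embryos are not given in the sources used here. With 1 library per stage there is no replicate, so no test between stages was made and every 95% interval below covers counting error only. Stage, embryo and the piece of tissue taken cannot be told apart.

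Kitl is made by stromal, epithelial and endothelial cells and acts on neighbours that carry Kit, either from the cell surface or after it has been shed. Binding pairs up the receptor, which then signals through phosphoinositide 3-kinase, Src family kinases, the Ras pathway and Stat5. Blood progenitors, primordial germ cells, melanoblasts and mast cells depend on the pair, as the white spotting and Steel mouse mutants show. Most maturing blood lineages lose the receptor, while mast cells keep it.

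The filtered E10.5 library held 8009 cells with a median of 15479 unique transcript counts (UMIs) each, and the E11.5 library 8976 cells with a median of 13131. A cluster is called by a cell type with "-like" only where at least 3 markers of that type stood out. Of the 50 clusters, 36 were named, and unnamed clusters held 38.4% of the E10.5 cells and 52.0% of the E11.5 cells. Neither Kit nor Kitl was used to form or name a cluster. Many clusters came almost wholly from 1 library, and such a cluster may mark that library and not a type. The labelled organs were found: hepatoblast-like cells passed 8 of 8 markers in cluster 27, and arterial endothelial-like cells passed 8 of 8 in cluster 31. Tissue beyond them was present too, such as sclerotome-like cells (1135 at E10.5) and cells like notochord or floor plate (209 at E10.5). In all, 37 barcodes occurred in both libraries, and 24 and 30 of those passed the filter.

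Kit (ENSMUSG00000005672) lies on chr5:75574916-75656722 of GRCm38, on the plus strand. The gene stands between 2 other receptor tyrosine kinase genes, 376.701 kb after the end of Pdgfra and 276.105 kb before that of Kdr. Kitl (ENSMUSG00000019966) lies on chr10:100015630-100100416, also on the plus strand. Both genes make alternative proteins, and the stretches that set them apart are shown because the counts, taken at the 3' end of transcripts, do not separate them. In GENCODE M21 the coding exon 6 of Kitl (84 bases, chr10:100080857-100080940) is present in transcript Kitl-202 and absent from Kitl-201. It encodes 28 amino acids of the stalk near the membrane, where the ligand is cut to its soluble form, and without it the ligand stays mainly on the cell surface. In Kit, the last 12 bases of exon 9 (chr5:75639147-75639158) are present in Kit-201 and absent from Kit-204, which adds or drops 4 amino acids outside the membrane. In both lines the capitals mark the alternative stretch, and 30 transcript bases on each side are in lower case.
Kitl exon 6: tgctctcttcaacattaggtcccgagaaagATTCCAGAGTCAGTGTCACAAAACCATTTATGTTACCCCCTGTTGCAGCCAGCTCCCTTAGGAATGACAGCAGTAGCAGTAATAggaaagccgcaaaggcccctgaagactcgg
Kit end of exon 9: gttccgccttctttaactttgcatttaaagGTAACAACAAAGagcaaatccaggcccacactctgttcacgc

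Kit was a sparse transcript, carried by few cell types at a high level. The E10.5 library had 686 Kit UMIs in 506 cells, and the E11.5 library 2281 in 1268 cells. Over all cells this was 5.46 CPM (counts-per-million: the gene's UMIs as a share of all UMIs; 95% Poisson interval 5.06 to 5.88) at E10.5 and 17.5 CPM (16.8 to 18.3) at E11.5. Haemoglobin and mitochondrial genes were left out of the totals. Of the 29 clusters with at least 20 cells at E10.5, 1 reached 50 CPM of Kit and 24 were under 10 CPM. At E11.5, 4 of 36 reached 50 CPM and 21 were under 10 CPM. The ligand was more widely spread, with 10 of 29 and 10 of 36 clusters at or above 50 CPM and with 6638 UMIs in 2146 cells of the E10.5 library and 6916 in 1838 of the other. Over all cells the Kitl level was 52.8 CPM (51.6 to 54.1) and 53.2 CPM (51.9 to 54.4), with overlapping intervals.

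**Figure D1:**
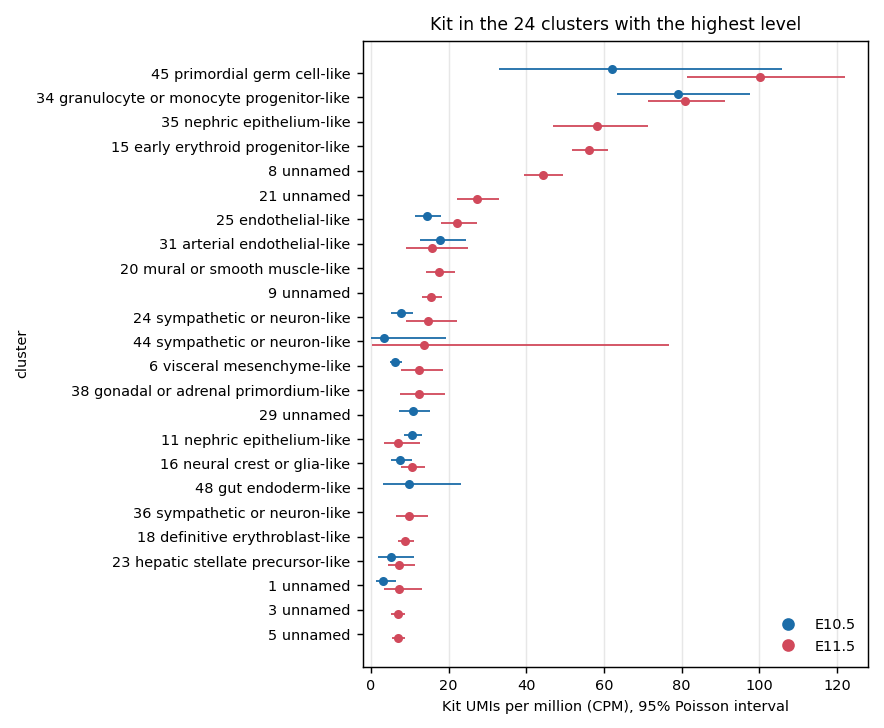
Kit level in CPM (x axis) in the 24 clusters with the highest level among those with at least 15 cells in a library (y axis, cluster number and name), at E10.5 (blue) and E11.5 (red). Points are sums over the cells of a cluster in 1 library and bars are 95% Poisson intervals. Germ cell-like and granulocyte or monocyte progenitor-like clusters stand at the top, and only those 2 are above 60 CPM in both libraries.

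Among blood cells, Kit was highest in cluster 34, granulocyte or monocyte progenitor-like cells led by S100a8, Mpo and Prtn3, genes of granule-bearing cells. The name rests on both libraries together and may not hold for all cells of the cluster. At E10.5, 14 of its cells had no Mpo UMI and 13 had at least 2 UMIs of Cdh5, a gene of endothelium. At E11.5, 53 had no Mpo UMI and 55 had at least 2 UMIs of Gata1, an erythroid and megakaryocyte factor. The 27 cells at E10.5 held 79.1 CPM (63.4 to 97.6), and the 120 cells at E11.5 held 80.8 CPM (71.4 to 91.1), with no difference beyond counting error. A Kit UMI was seen in 77.8% of the cells at E10.5 (exact 95% interval 57.7 to 91.4) and in 75.0% at E11.5 (66.3 to 82.5). With each cell thinned to 5000 UMIs, these shares were 29.6% of 27 cells and 25.2% of 119. As a class without the receptor, primitive erythroblast-like cells, the red cells of the yolk sac wave, had no Kit UMI in 186 cells at E10.5 and none in 184 at E11.5, which allows at most 1.05 and 3.05 CPM (3 UMIs). Their median depths of 31200 and 17931 UMIs include haemoglobin, while those of cluster 34 were 39166 and 27990. Macrophage-like cells had 1 Kit UMI in 32 cells and 1 in 95, or 0.58 CPM (0.015 to 3.23) at E11.5. Megakaryocyte-like cells had 6.75 CPM (3.86 to 10.96) in 107 cells at E11.5. When cells were classed by counting markers cell by cell instead of by cluster, 21 cells of the progenitor class were left at E11.5 and their Kit level was 28.1 CPM.

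Within cluster 34, the summed Kit level varied with other genes of blood formation. At E10.5, 13 cells with at least 2 UMIs of Cdh5, an adhesion gene of endothelium, held 117 CPM of Kit (90.6 to 149), against 30.9 CPM (16.9 to 51.9) in 12 cells without a Cdh5 UMI. A similar gap was seen for Hlf, a transcription factor of stem cells: 109 CPM (81.2 to 143) in 9 cells with at least 2 UMIs and 43.2 CPM (27.4 to 64.8) in 14 cells with none. After thinning, 6 of 13 and 1 of 12 cells had a Kit UMI in the Cdh5 split (19.2 to 74.9% and 0.21 to 38.5%). In the Hlf split 4 of 9 and 2 of 14 did (13.7 to 78.8% and 1.78 to 42.8%). The thinned intervals thus overlap for both genes. At E11.5 only 4 cells had at least 2 UMIs of Cdh5, and their summed level of 86.9 CPM (43.4 to 156) overlapped the 81.2 CPM (71.4 to 92.0) of the 111 without. As a mean over cells the values were 147 and 82.0 CPM. After thinning by a single random draw, all 4 of those cells had a Kit UMI (39.8 to 100%), against 25 of 110 without Cdh5 (15.3 to 31.7%). These intervals do not overlap, but they leave out the spread between draws. With 11 Kit UMIs in the 4 cells before thinning, no difference is read from these shares. For Hlf the summed levels at E11.5 were 67.6 CPM (42.4 to 102) in 12 cells and 81.0 CPM (70.7 to 92.3) in 99, and the thinned shares were 5 of 12 and 21 of 98, with overlapping intervals in both measures. For Gata1, the erythroid and megakaryocyte factor, the summed levels at E11.5 lay apart. The 55 cells with at least 2 Gata1 UMIs held 94.1 CPM (80.7 to 109), and the 53 cells with none held 58.5 CPM (45.8 to 73.7). Their median depths were 32766 and 23321 UMIs, and the means over cells were 96.4 and 69.1 CPM. After thinning no gap was left, with a Kit UMI in 13 of 55 cells (13.2 to 37.0%) and 13 of 52 (14.0 to 38.9%). At E10.5 the Gata1 values lay the other way, 40.9 CPM (21.8 to 70.0) in 8 cells and 94.7 CPM (74.3 to 119) in 19. The thinned shares there were 0 of 8 and 8 of 19, with overlapping intervals. None of the 27 cells at E10.5 had an S100a8 UMI, although that gene led the cluster. The 12 cells at E11.5 with at least 2 UMIs of S100a8, a gene of later granulocytes, held 3 Kit UMIs or 11.3 CPM (2.33 to 33.0), against 86.9 CPM (76.7 to 98.0) in 108 cells without it. The thinned shares were 0 of 12 and 30 of 107, with overlapping intervals. Mpo, of earlier granulocyte precursors, made little difference at E10.5 (86.0 and 80.5 CPM in 11 and 14 cells) and at E11.5 stood beside 65.8 CPM (53.5 to 80.2) in 54 cells, against 88.7 CPM (74.2 to 105) in 53. These groups of cells share a library and are few, and the splits were chosen after the values were seen.

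Runx1 is the factor needed for blood to form from endothelium, and cells in which both it and Cdh5 reached 2 UMIs were counted in any cluster. There were 16 at E10.5, with 92.9 CPM of Kit (72.8 to 117), and 13 at E11.5, with 44.7 CPM (26.9 to 69.7). A Kit UMI was seen in 13 of the 16 and in 6 of the 13. Kitl reached 25.5 CPM (15.6 to 39.3) and 63.5 CPM (41.8 to 92.3) in the same cells, from 2 and 5 cells with a UMI. The cell with most Kitl UMIs held 14 of the 20 at E10.5 and 13 of the 27 at E11.5.

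The largest part of the Kit transcripts at E11.5 lay in cluster 15, early erythroid progenitor-like cells (407 cells, all of that library), with Klf1, Ermap and Myb among their leading genes. They held 579 of 2281 Kit UMIs, or 25.4% (23.6 to 27.2) of the total in 4.53% of the cells. The level was 56.2 CPM (51.7 to 60.9), below cluster 34 at the same stage. A Kit UMI was seen in 50.4% of cells (45.4 to 55.3), and in 16.4% of 335 cells after thinning. Definitive erythroblast-like cells (353 cells, cluster 18) had 8.82 CPM (6.90 to 11.1).

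**Figure D2:**
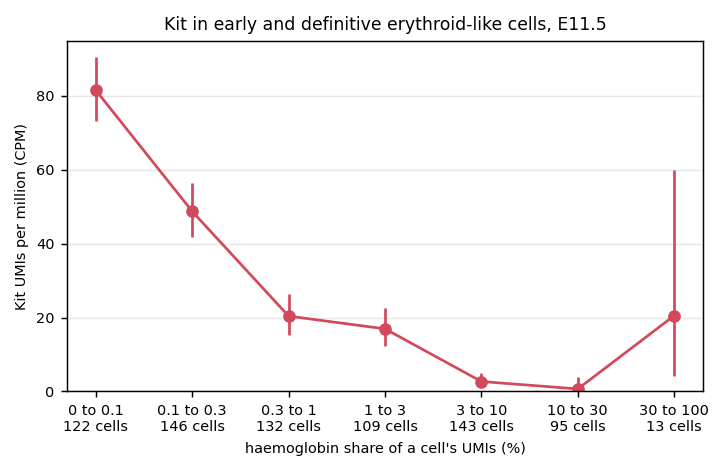
Kit level (y axis, CPM with 95% Poisson interval) in early and definitive erythroid-like cells of the E11.5 library, grouped by the share of a cell's UMIs that came from haemoglobin genes (x axis, percent, with the number of cells). The level goes from 81.5 CPM in the cells with least haemoglobin to 0.68 CPM in those with 10 to 30%, and the last point rests on 13 cells.

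Across these 2 clusters Kit became lower as haemoglobin became higher. In 122 cells with under 0.1% of UMIs from haemoglobin genes, Kit stood at 81.5 CPM (73.2 to 90.4) and 86.9% of cells had a UMI. The level was 48.7 CPM (41.8 to 56.4) from 0.1 to 0.3% haemoglobin, 20.4 CPM (15.4 to 26.5) from 0.3 to 1%, and 16.9 CPM (12.4 to 22.6) from 1 to 3%. The last pair did not differ beyond counting error, while the steps before it did. From 3 to 10% haemoglobin, 9 Kit UMIs in 143 cells gave 2.69 CPM (1.23 to 5.11), and from 10 to 30% there was 1 UMI in 95 cells. Above 30% there were 3 UMIs in 13 cells (20.5 CPM, 4.23 to 60.0), too few to place. Haemoglobin was kept out of the clustering and of the CPM total, and the limits of the groups were chosen after the values were seen. Kitl stayed between 0 and 2.09 CPM in all 7 groups.

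Germ cell-like cells had the highest summed Kit level of all clusters with at least 20 cells at E11.5. Cluster 45 was led by Dppa5a, Dppa3 and Pou5f1, pluripotency genes that germ cells keep. Its 38 cells at E11.5 held 99 Kit UMIs, 100.2 CPM (81.4 to 122), and its 16 cells at E10.5 held 13, or 62.0 CPM (33.0 to 106). The interval at E11.5 overlaps that of cluster 34 and lies above that of cluster 15. As a mean over cells the order with cluster 34 was reversed, at 72.6 CPM against 83.7 CPM in cluster 34. A Kit UMI was seen in 63.2% of cells at E11.5 (46.0 to 78.2), and in 57.1% of the 28 cells deep enough to be thinned. At E10.5 it was seen in 5 of 16 cells, at a median depth of 6211 UMIs against 28921 at E11.5. No Kitl UMI was found in the 38 cells, which allows at most 3.04 CPM, and 1 was found in the 16. With a minimum of 2000 UMIs per barcode the germ cell-like class at E10.5 took in 100 cells and its Kit level was 13.9 CPM. It was 33.3 CPM (31 cells) with at most 5% mitochondrial UMIs and 33.3 CPM as a mean over the 16 cells, so the E10.5 value depends on these choices. Picking germ cells by 3 or more of 8 markers, cluster aside, gave 13 cells with 55.8 CPM (28.8 to 97.5) at E10.5 and 38 cells with 100.02 CPM (81.3 to 122) at E11.5, of which 11 and 37 lay in cluster 45.

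Few cells met the marker rule for the other textbook carriers of Kit. Melanoblast markers (3 or more of 7) were found together in no cell at E10.5 and in 1 at E11.5, which had no Kit UMI. Mast cell markers (3 or more of 6) were found together in no cell at E10.5 and in 1 at E11.5, which lay in cluster 34 and had 5 Kit UMIs.

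Outside blood and germ cells, the highest Kit level among clusters with at least 20 cells in a library was that of nephric epithelium-like cluster 35 (145 cells, all E11.5), with Pax8 and Emx2, genes of the early kidney, among its leading genes. It held 58.2 CPM (46.9 to 71.4), an interval that overlaps that of cluster 15, and 31.7% of its cells (24.3 to 39.96) had a Kit UMI, or 17.2% of 134 after thinning. Nephric epithelium-like cluster 11, with Epcam, Pax2 and Lhx1, stood at 10.6 CPM (8.46 to 13.2) in 420 cells at E10.5 and at 6.88 CPM in 54 cells at E11.5. A higher point value, 99.3 CPM (47.6 to 183), came from only 3 cells of gut endoderm-like cluster 48 at E11.5, whose 30 cells at E10.5 held 9.95 CPM. Kit differed between the nephric clusters of the E11.5 library by more than counting error. The next carrier was unnamed cluster 8 (589 cells, all E11.5), led by Sfrp2, Postn, Col1a2 and Angpt1, genes of matrix and secreted factors. Its 44.2 CPM (39.3 to 49.6) made up 13.0% (11.6 to 14.4) of all Kit UMIs of that library. A Kit UMI was seen in 36.0% of its cells, or 19.5% of 560 after thinning, with at most 4 UMIs in a cell. Unnamed cluster 21 (led by Igf1 and Ccdc80) stood at 27.2 CPM (22.2 to 33.1) at E11.5, mural or smooth muscle-like cluster 20 at 17.6 CPM (14.3 to 21.5) and unnamed cluster 9 (led by Crabp1 and Efemp1) at 15.5 CPM (13.1 to 18.2). The intervals of clusters 20 and 9 overlap.

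Endothelium carried Kit at a low level in both libraries. Endothelial-like cluster 25 stood at 14.4 CPM (11.3 to 18.0) in 130 cells at E10.5 and 22.3 CPM (18.0 to 27.2) in 135 cells at E11.5. Arterial endothelial-like cluster 31 stood at 17.8 CPM (12.6 to 24.4) and 15.7 CPM (9.13 to 25.1), and the intervals of the 2 clusters overlapped in each library. Endothelial-like cluster 30, of shallow cells (median 2022 UMIs at E10.5), had 5 Kit UMIs in 135 cells at E10.5 and 1 in 73 at E11.5. At E10.5, where no early erythroid cluster was found, the Kit UMIs were spread over several clusters: 12.7% lay in cluster 34, 12.0% in nephric cluster 11 and 11.2% in endothelial cluster 25. By compartment, blood-like clusters held 12.8% of Kit UMIs at E10.5 in 3.21% of cells, and 41.0% at E11.5 in 14.1% of cells. Mesenchyme-like clusters held the largest share at E10.5, 23.6% in 36.2% of cells, and 7.76% at E11.5. Epithelium-like clusters held 13.6% and 5.44%, endothelium 17.5% and 4.998%, and germ cell-like cells 1.90% and 4.34%. Neural clusters held 5.39% and 2.06%, neural crest 4.81% and 2.02%, and unnamed clusters 20.3% and 32.4%.

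**Figure D3:**
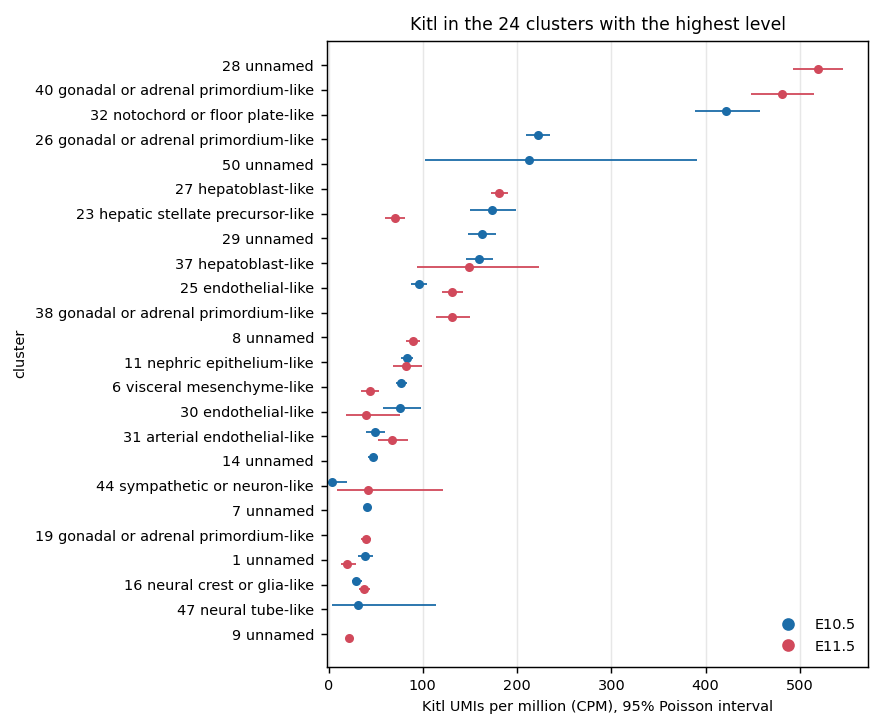
Kitl level in CPM (x axis) in the 24 clusters with the highest level among those with at least 15 cells in a library (y axis), at E10.5 (blue) and E11.5 (red), with 95% Poisson intervals. Clusters 28 and 40 at E11.5 and cluster 32 at E10.5 lie above 400 CPM, well clear of the other clusters.

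The clusters with the highest Kitl level were not those with the highest Kit level. The highest Kitl level stood in cluster 28 (221 cells, all E11.5), at 519 CPM (493 to 545) with a UMI in 90.05% of cells (85.3 to 93.7). This cluster passed 7 of 8 markers of the gonadal or adrenal primordium, but Wnt6, a surface ectoderm marker, was among its 10 leading genes, so by the rule it has no name. Cluster 40 (121 cells, all E11.5), gonadal or adrenal primordium-like and sharing the leading genes Kctd14, Lgals7 and Ifitm1 with cluster 28, held 481 CPM (449 to 515) with a UMI in 98.3% of cells. The intervals of these 2 clusters overlap. They held 22.04% and 11.8% of the Kitl UMIs of the library in 2.46% and 1.35% of its cells. Gonadal or adrenal primordium-like cluster 26, led by Lhx9, Upk3b and Tcf21, was the main source at E10.5 with 222 CPM (209 to 235) in 254 cells and 17.3% of Kitl UMIs. Other clusters with that name were lower: cluster 38, with Star and Wnt4, held 131 CPM (114 to 150) and cluster 19 held 39.6 CPM (34.4 to 45.3) at E11.5. The level of the whole class at E11.5, 143 CPM, therefore depended on which clusters got the name. It was 238 CPM with cluster 28 named too, and between 44.2 and 275 CPM over the other alternatives.

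A midline cluster was the other strong source at E10.5. Cluster 32, notochord or floor plate-like with Shh, Spon1 and Foxa2, held 422 CPM of Kitl (388 to 458) in 161 cells, of which 77.6% had a UMI. This was above cluster 26 of the same library by more than counting error. Kit was nearly missing there, with 1 UMI in 161 cells. The median depth of these cells was 8303 UMIs, and 72.7% of 139 cells had a Kitl UMI after thinning. Cluster 46, with the same name and with Shh and T among its leading genes, did not share this level. Its 48 cells at E10.5, at a median depth of 14716.5 UMIs, held 7.26 CPM of Kitl (2.66 to 15.8). Over both clusters the class held 266 CPM (245 to 289).

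Liver cells held as large a part of the Kitl at E11.5 as cluster 28. Hepatoblast-like cluster 27, with Alb, Afp and Apoa1, held 181 CPM of Kitl (172 to 190.3) in 235 cells, a UMI in 97.9% of them and 22.6% (21.6 to 23.6) of the Kitl UMIs of the library. Hepatoblast-like cluster 37 held 160.0 CPM (146 to 175) in 83 cells at E10.5 and 149 CPM (94.3 to 223) in 53 cells at E11.5. Its cells were shallow at E11.5, with a median of 1984 UMIs against 34650 at E10.5. Hepatic stellate precursor-like cells, cluster 23 with Lhx2, Colec11 and Reln, held 173 CPM (150 to 199) in 96 cells at E10.5 and 70.1 CPM (60.4 to 81.0) in 188 at E11.5.

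Endothelium and mesenchyme came next. Endothelial-like cluster 25 held 96.0 CPM of Kitl (87.9 to 105) at E10.5 and 131 CPM (121 to 142) at E11.5, with a UMI in 78.5% and 74.8% of cells. Arterial endothelial-like cluster 31 was lower in both libraries, at 49.1 CPM and 67.3 CPM (52.8 to 84.6). Endothelial-like cluster 30 held 76.2 CPM (58.0 to 98.3) and 39.8 CPM (18.2 to 75.6). Nephric epithelium-like cluster 11 held 83.4 CPM (77.1 to 90.1) and 82.5 CPM (68.4 to 98.7). Visceral mesenchyme-like cluster 6 held 77.3 CPM (71.8 to 83.0) at E10.5 and, with 582 cells, 11.3% of Kitl UMIs. Unnamed cluster 29 held 162 CPM (148 to 177) in 217 cells at E10.5, and unnamed cluster 8 held 89.1 CPM (82.1 to 96.5) at E11.5. Unnamed cluster 50 reached 213 CPM from 10 UMIs in 20 cells (102 to 391), too few to rank.

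Blood cells had little Kitl. Early erythroid progenitor-like cells had 10 Kitl UMIs in 407 cells, 0.97 CPM (0.47 to 1.78), so that 2.46% had a UMI at a median depth of 29719. Cluster 34 had 0.91 CPM (0.023 to 5.07) at E10.5 and 6.05 CPM (3.70 to 9.35) at E11.5, where the 20 UMIs came from 5 of 120 cells and 9 of them from a single cell. Macrophage-like cells at E11.5 had 10.4 CPM (6.18 to 16.5), above early erythroid cells by more than counting error. A Kitl UMI was seen in 14.7% of these macrophage-like cells (8.30 to 23.5), and in 9.20% of 87 after thinning. These blood cells are the background for the shares of Kitl-positive cells given above, and that background differed between them. By compartment, 0.20% of the E10.5 and 0.95% of the E11.5 Kitl UMIs lay in blood.

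**Figure D4:**
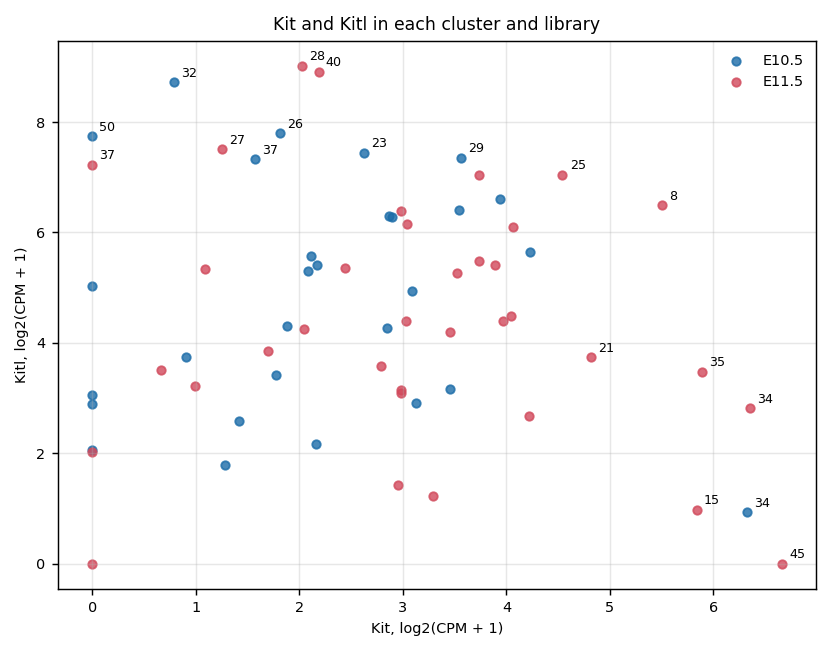
Kit level (x axis) against Kitl level (y axis), both as log2(CPM + 1), for each cluster with at least 20 cells in a library. E10.5 is blue and E11.5 red, and only the points highest for either gene carry a cluster number. The highest Kit clusters (15, 34, 35, 45) lie low on Kitl, the highest Kitl clusters (28, 32, 40) lie low on Kit, and clusters 8 and 25 lie between.

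The clusters that reached 50 CPM of Kit did not reach 50 CPM of Kitl, but other clusters held much of both. At E10.5, clusters 11, 25 and 6 held 12.0%, 11.2% and 8.89% of Kit UMIs and 9.69%, 7.74% and 11.3% of Kitl UMIs. At E11.5, unnamed cluster 8 held 13.0% and 8.62%. Over the 48 clusters with at least 30 cells, both libraries together, the levels of Kit and Kitl on the scale log2(CPM + 10) had a Pearson correlation of -0.23 and a Spearman correlation of -0.10, given as a description of points that share 2 libraries. In the Kitl source clusters 28 and 40 the Kit level was 3.06 and 3.55 CPM, and in hepatoblast-like cluster 27 it was 1.39 CPM. Among endothelial clusters, cluster 25 most often held both genes in the same cell. Of the 130 cells of cluster 25 at E10.5, 44 (33.8%, interval 25.8 to 42.7) had a UMI of each, as did 40 of 135 (29.6%, 22.1 to 38.1) at E11.5. These are deep cells, and after thinning to 5000 UMIs only 1 and 5 of 129 cells had both. Arterial endothelial-like cluster 31 had both in 9 of 131 cells at E10.5 and 4 of 54 at E11.5, before thinning. For the shallow endothelial-like cluster 30 the counts were 4 of 135 and 0 of 73. In unnamed cluster 8, 104 of 589 cells (17.7%, 14.7 to 20.98) had both, and 37 of 560 did after thinning. Over all cells, 248 of 8009 at E10.5 (3.097%) and 305 of 8976 at E11.5 (3.40%) had both. Undetected pairs of cells in a droplet were not separated beyond the removal of likely doublets, and their part in these counts was not tested.

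The genes around the receptor were read in the Kit-carrying clusters against all other cells of the same library. A gene was called at a 2-fold difference, with at least 3 UMIs expected in the cluster, and the all-gene share of calls is given first. In cluster 34 at E11.5, 6.0% of 13938 genes were called higher and 32.3% lower. Kit itself was 5.09-fold higher (80.8 against 15.9 CPM). Of 10 listed regulators of Kit, 6 were higher and none lower, with a median log2 difference of 1.40 against -0.39 for all genes. They were Gata1, Tal1, Lyl1, Lmo2, Runx1 and Myb, the core transcription factors of blood progenitors, and Myb stood at 295 CPM against 16.8. Of 18 signalling genes 6 were higher and 2 lower, with Vav1 at 41.8 against 3.13 CPM and Stat5a at 28.2 against 3.89 CPM among the higher. Of 12 genes that restrain Kit, 4 were higher and 5 lower. The phosphatases Ptpn6 (127 against 10.2 CPM) and Inpp5d (32.1 against 4.68 CPM) were among the higher, and Spry1 (7.57 against 27.6 CPM) was among the lower. The same cluster at E10.5 (7.04% of genes higher, 24.2% lower) had Kit 16.5-fold higher, 7 of 9 measured regulators higher (median log2 difference 3.65, all genes -0.22) and 3 of 15 signalling genes higher (median 0.03).

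In early erythroid progenitor-like cluster 15 (6.23% of genes higher and 46.8% lower) Kit was 3.95-fold higher than in other cells. Of 10 regulators 5 were higher and 3 lower, with a median log2 difference of 1.45 against -0.85 for all genes. Gata1, which also served to name the cluster, Tal1, Lyl1, Lmo2 and Myb were higher, and Gata2 (3.39 against 45.1 CPM), Fli1 and Mitf were lower. Stat5a (24.4 against 2.79 CPM) and Stat5b (22.98 against 9.32 CPM), the signal carriers that erythropoietin also uses, were the 2 higher among 18 signalling genes, and 6 were lower.

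Germ cell-like cluster 45 at E11.5 (8.9% of genes higher, 33.5% lower) carried Kit 5.93-fold higher with another set of genes. None of 9 measured regulators was higher and 7 were lower, with a median log2 difference of -3.63 against -0.39 for all genes. Gata1, Tal1, Lyl1, Lmo2 and Runx1 each stood at 1.01 to 3.04 CPM. Of 18 signalling genes 10 were lower, among them Pik3r1, a regulatory subunit of phosphoinositide 3-kinase (1.01 against 69.8 CPM), and Jak2 (4.05 against 19.3 CPM). Lyn had no UMI. The 2 that were higher were Pik3cd (19.2 against 3.25 CPM) and Plcg1 (50.6 against 24.4 CPM). Ptpn6 was higher here too (75.9 against 12.7 CPM), as was Spred2, a brake on the Ras pathway (54.6 against 20.97 CPM). Pdgfa, a ligand of the sister receptor Pdgfra, stood at 207 against 35.6 CPM. Ptpn6, Spred2 and Pdgfa are single members of their lists. The other restraint, sister receptor and ligand genes are not given for this cluster.

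Nephric epithelium-like cluster 35 (7.06% of genes higher, 13.7% lower) had 2 of 10 regulators higher, Gata2 (123 against 40.8 CPM) and Runx1 (158 against 25.5 CPM), and 6 lower. Among 12 restraint genes, Spry1, Spry2 and Spred2 were higher there and 3 others lower. In unnamed cluster 8 (6.88% higher, 18.6% lower), none of 10 regulators was higher and 6 were lower. The sister receptors Pdgfra (138 against 49.3 CPM) and Pdgfrb (99.5 against 31.5 CPM) and the ubiquitin ligase Cblb, which removes active receptors (79.1 against 19.4 CPM), were higher. Pdgfra, Pdgfrb and Cblb are single members of their lists, and the other members are not given for this cluster. Kdr, the neighbour of Kit on chromosome 5, also served to name endothelial-like cluster 25, so its level there is no independent result. At E11.5 it stood at 709 CPM in that cluster against 23.8 CPM in other cells, while Kit there was 1.28-fold higher.

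On the ligand side, 8 factors that act with Kitl on blood progenitors were read in the source clusters. In hepatoblast-like cluster 27 (7.85% of genes higher, 38.0% lower), Kitl at 181 CPM stood against 44.1 CPM in other cells. Thpo, the thrombopoietin gene (10.4 against 0.17 CPM), and Dlk1, itself a hepatoblast marker (3750 against 568 CPM), were higher there. Cxcl12, the chemokine that holds blood progenitors, was lower (77.0 against 272 CPM). In unnamed cluster 8, 3 of 7 measured were higher: Cxcl12 (1222 against 207 CPM), Angpt1 (160.1 against 12.6 CPM), which was also a leading gene of the cluster, and Bmp4 (254 against 46.0 CPM). In source cluster 28 (7.95% higher, 21.7% lower), none of 6 was higher and 5 were lower, and in cluster 40 (8.8% higher, 21.2% lower) the counts were the same. Runx1, listed among regulators of Kit, was higher in clusters 28 (120.2 against 24.9 CPM) and 40 (114 against 25.9 CPM) with little Kit beside it. Adam17, a protease that sheds Kitl, was measured in each of clusters 8, 25, 27, 28 and 40 at E11.5 at 26.4 to 34.1 CPM, within 2-fold of the other cells.

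The 2 libraries were then set side by side within clusters to which each gave 50 cells or more. A ratio was read where both libraries together gave at least 20 UMIs, for Kitl in 10 clusters and for Kit in 7. For Kitl the interval lay above 0 in 3 clusters, below 0 in 3 and across 0 in 4. The lowest ratio was that of stellate precursor-like cluster 23, at -1.30 on the log2 scale (-1.60 to -1.01), where 4.41% of 9853 genes were called lower and 5.53% higher. The highest was that of sympathetic or neuron-like cluster 24, from 6.51 to 19.9 CPM, a log2 ratio of 1.62 (0.82 to 2.42) from 27 and 30 UMIs, where 6.38% of 10822 genes were called higher and 6.0% lower. Kitl was also lower at E11.5 in visceral mesenchyme-like cluster 6 (-0.83, -1.18 to -0.50) and unnamed cluster 1 (-0.93, -1.59 to -0.30), a cluster of shallow cells. It was higher in endothelial-like cluster 25 (0.45, 0.28 to 0.63) and, barely, in arterial endothelial-like cluster 31 (0.46, 0.0042 to 0.90). Endothelial-like cluster 30 lay the other way, at -0.94 with an interval across 0 (-2.13 to 0.085), from 59 and 9 UMIs.

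For Kit the interval lay above 0 in 3 clusters and across 0 in 4. Kit was higher at E11.5 in endothelial-like cluster 25 (0.63, 0.18 to 1.08), in visceral mesenchyme-like cluster 6 (0.97, 0.21 to 1.69) and in cluster 24 (0.92, 0.070 to 1.75). In cluster 6 receptor and ligand thus lay in opposite directions. The median log2 ratio of all genes was 0.082 in cluster 25, 0.0039 in cluster 6 and -0.027 in cluster 23. The clusters hold 53 to 967 cells in a library, and a change in the makeup of a cluster cannot be told apart from a change in its cells.

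**Figure D5:**
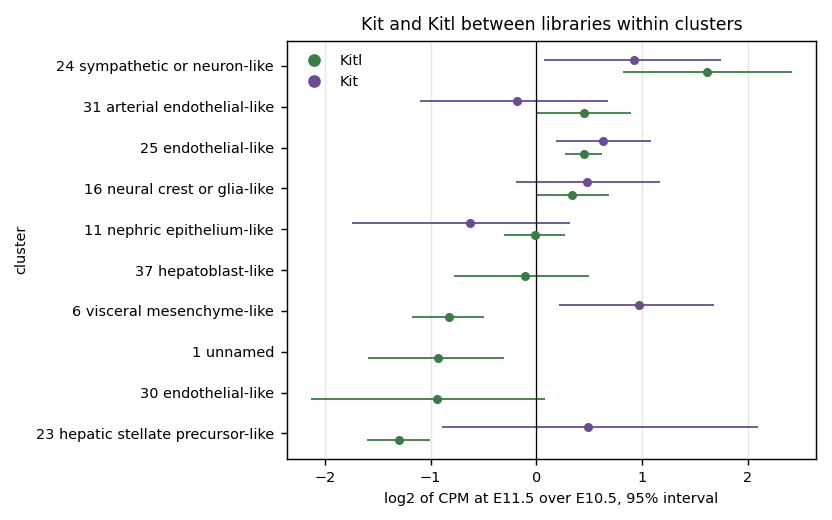
Log2 ratio of CPM at E11.5 over E10.5 (x axis) within clusters to which each library gave 50 cells or more (y axis), for Kitl (green) and Kit (purple), with exact conditional 95% intervals. Kitl lies left of 0 in stellate precursor-like cluster 23 at -1.30 and right of 0 in endothelial-like cluster 25 at 0.45.

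Genes whose level went most like that of the members were ranked by Pearson correlation over the 48 clusters among 8281 genes with at least 50 CPM in some cluster. For Kit they were Sde2 (0.69), Eif3c (0.65), Gdf3 (0.65), Myb (0.65), Ubap2 (0.62), Aqr (0.61), Sart1 (0.60) and 4930447C04Rik (0.60). For Kitl they were Naaa (0.72), Pcsk6 (0.72), Acaa2 (0.66), Ppcs (0.66), Gcc2 (0.64), Fam198b (0.64), Pnliprp2 (0.63) and Pank1 (0.63). By rank correlation 3 of the 8 for Kit and 2 of the 8 for Kitl were among the first 8. The points share 2 libraries and differ in depth, and the values are a description.

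The promoters were read from RefSeq (GRCm38.p6), 250 bases before to 50 after the start of each gene, because Gata1, which binds GATA motifs, and Tal1 and Lyl1, which bind E-boxes, were higher in blood clusters 15 and 34 at E11.5 than in other cells. On both strands TATAAA, the core of the TATA box, was searched. The GATA motif was searched as AGATAA. The GC box was searched as GGGCGG. The E-box was searched as CANNTG. No AGATAA match lies in these windows, and 11.2% of 32851 promoters hold it. CANNTG was in each window once (72.3% of promoters). TATAAA was in the Kitl promoter, 25 bases before the RefSeq start, and not in that of Kit (13.6% of promoters). Both that RefSeq start and the TATAAA lie after the GENCODE start of Kitl given above (100015630). For Kit 2 promoter entries are listed, and only the first by position was read. GGGCGG was found 1 time in Kit and 3 times in Kitl, overlapping itself in the latter (35.7% of promoters). Both windows were rich in G and C, 69.0% and 68.7% against a median of 52.7%. The capitals mark TATAAA and GGGCGG or its reverse complement, and the windows are chr5:75574737-75575036 and chr10:100015571-100015870, both on the plus strand.
Kit promoter: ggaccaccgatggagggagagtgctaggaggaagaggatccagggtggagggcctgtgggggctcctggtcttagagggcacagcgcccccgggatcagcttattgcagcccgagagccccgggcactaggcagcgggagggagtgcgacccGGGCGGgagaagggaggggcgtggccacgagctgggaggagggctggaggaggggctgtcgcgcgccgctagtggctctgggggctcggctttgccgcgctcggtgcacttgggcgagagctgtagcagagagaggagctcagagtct
Kitl promoter: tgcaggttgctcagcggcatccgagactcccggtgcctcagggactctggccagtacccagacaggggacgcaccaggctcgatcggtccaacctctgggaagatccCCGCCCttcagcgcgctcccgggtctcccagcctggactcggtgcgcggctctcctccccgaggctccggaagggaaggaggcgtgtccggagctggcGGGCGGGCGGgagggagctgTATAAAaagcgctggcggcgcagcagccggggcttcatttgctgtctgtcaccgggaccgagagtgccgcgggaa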

How the data were processed

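The authors' pipeline was Cell Ranger 5.0.0 and the genome mm10 (GRCm38), per the submitters' processing notes. The deposited values are UMI counts per gene and barcode, 151474708 and 159619785 in all, from a 3' droplet kit per the labels' protocols. The lowest barcode total was 500.

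Barcodes with at least 1000 UMIs, 500 genes and at most 10% mitochondrial UMIs were kept (8705 of 10996 and 9756 of 12289). Scrublet marked 0% at its automatic threshold, so the highest-scoring 8% of cells were removed (696 and 780). Cells scaled to 10000 UMIs were clustered with Leiden at resolution 1 on 2000 variable genes per library, 40 components and 15 neighbours. Kit, Kitl, the gene lists, haemoglobin, mitochondrial and sex-linked genes were left out. A cluster was named when at least 3 markers of 1 of 29 lists were 3-fold above the other clusters at 20 CPM or more (pseudocount 20 CPM) and no other list was favoured by its 10 leading genes.

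UMIs were summed per cluster and library, with exact Poisson, Clopper-Pearson or conditional 95% intervals; the interval code was tested on simulated data. A count of 0 was read as at most 3 UMIs. Genes over 20 UMIs, with 3 expected, entered the 2-fold calls. Genes named are the members, 61 genes in 6 lists, and the 8 most like each member. A listed gene is not reported here. Members and lists were chosen with earlier results of these data known. The alternatives were other cell filters, doublets kept, resolutions 0.5 and 2, libraries clustered alone, marker-gated classes, other scalings, thinned cells and rank correlation. A last alternative, naming without the condition on leading genes, was chosen after seeing the data. Python 3.11.15, numpy 2.4.6, scipy 1.17.1, scanpy 1.11.5, leidenalg 0.10.2 and python-igraph 0.11.9 were used.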

Additional observations from a re-analysis of the deposited data

Results flagged for a closer look

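The ratio of Kitl at E11.5 over E10.5 lay in opposite directions in different clusters, each with an interval clear of 0. It was negative in unnamed cluster 1 (-0.93 on the log2 scale), visceral mesenchyme-like cluster 6 (-0.83) and hepatic stellate precursor-like cluster 23 (-1.30). It was positive in sympathetic or neuron-like cluster 24 (1.62), endothelial-like cluster 25 (0.45) and arterial endothelial-like cluster 31 (0.46). The difference between clusters was not tested, since each stage has 1 library.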

How the results depend on the processing

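Of 338 values under other settings, 260 moved by less than the counting interval, 77 by more and 1 reversed. The last was the Kitl log2 ratio of the hepatoblast-like class, 0.18 in the main classes and -0.15 with classes from marker gates. Of that class, 83 of 84 cells at E10.5 lay in cluster 37 and 235 of 288 at E11.5 in cluster 27, while within cluster 37 the ratio was -0.10 (-0.78 to 0.50). The E11.5 cells of cluster 37 were shallow, with a median of 1984 UMIs against 34650 at E10.5. The endothelial-like class (clusters 25 and 30) stood at 93.5 CPM and 127 CPM of Kitl in the main classes, a log2 ratio of 0.44. For the main results 119 of 155 moved by less and 36 by more, 23 of them downward. With at least 2000 UMIs per barcode, Kit stood at 13.9 CPM in germ cell-like cells at E10.5 and 50.7 CPM in early erythroid cells, and Kitl at 76.7 CPM in gonadal cells at E11.5 and 178 CPM in hepatoblast-like cells at E10.5. With at most 5% mitochondrial UMIs, Kit stood at 49.6 CPM in early erythroid cells, and Kitl at 44.2 CPM in gonadal, 170.2 CPM in endothelial (E11.5) and 204.2 CPM in midline cells, with an endothelial log2 ratio of 0.89. With doublets kept, Kit stood at 58.6 CPM in granulocyte or monocyte progenitor-like cells at E11.5, and Kitl at 205 CPM and 75.7 CPM in gonadal cells at E10.5 and E11.5 and at 240.04 CPM in midline cells. With Leiden resolution 0.5, Kitl in gonadal cells at E11.5 was 275 CPM. With resolution 2, it was 172 CPM, and Kit in early erythroid cells was 50.7 CPM. With each library clustered alone, Kitl was 199 CPM in gonadal and 152 CPM in endothelial cells at E11.5, and the endothelial log2 ratio was 0.61. With marker gates, Kit was 28.1 CPM in progenitor and 48.8 CPM in early erythroid cells at E11.5. Kitl was then 264 CPM in gonadal, 156 CPM in hepatoblast-like and 138 CPM in endothelial cells at E11.5, and 125 CPM and 54.3 CPM in stellate precursor-like cells at E10.5 and E11.5, with an endothelial log2 ratio of 0.64. With naming free of the condition on leading genes, Kitl was 238 CPM in gonadal cells at E11.5 and 82.0 CPM and 115 CPM in endothelial cells at E10.5 and E11.5. As a mean over cells, Kit was 72.6 CPM in germ cell-like and 45.6 CPM in early erythroid cells at E11.5, and Kitl was 83.4 CPM and 97.6 CPM in endothelial and 320.3 CPM in midline cells, with an endothelial log2 ratio of 0.23. Where classes took in other cells the value is that of other cells; the cause of the rest was not tested. For 13 values the class was not found under the setting and no value could be given. Classes of few cells limit precision: 16 germ cell-like and 27 progenitor-like cells at E10.5. No paired analysis was possible because each stage has 1 library.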
